A study of Mus musculus with 2 samples.

Results

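Transcripts of 8 genes of the interleukin-1 (IL-1) system were followed across the cell clusters of a mouse hepatoma graft. The genes were the ligands Il1a and Il1b, the receptor antagonist Il1rn, the receptors Il1r1, Il1r2 and Il1rap, and the inflammasome genes Nlrp3 and Casp1. They were chosen by name, and are 8 of the 18685 genes in the matrix of the antibody library. The grafts were percutaneous tumours of Hep1-6, a mouse hepatoma cell line, in wild type male C57BL/6 mice, 6 to 8 weeks old, kept specific pathogen free on a normal diet. The mice were injected intraperitoneally with IgG or with an antibody to SIGLEC15, an immunoglobulin-like lectin studied as an immune checkpoint, and the design text gives 3 mice per group. Each group gave 1 library of single cells, for which cells enriched on CD45 beads and unsorted cells were loaded in equal parts, so that shares of cell types were set by the loading. Of the IgG library, 105 gene rows could be read in full and 0 of the 8 genes were among them, so every level below is from tumours of antibody-treated mice, and an effect of the antibody on these genes was not analysed here.

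The antibody library held 5482 cells in 30 clusters named by the authors, with 74168827 UMIs (unique molecular identifiers, each marking 1 captured transcript) and a median of 13714.5 UMIs per cell. Levels are CPM, the UMIs of a gene per 1000000 UMIs of the same cells. Intervals in brackets are exact 95% intervals that cover counting error only. Cells of 1 library are not replicates, so no p-value is given and no difference has a replicate check. The clusters MDSC_1 to MDSC_4, named for myeloid-derived suppressor cells, together held 62691 CPM of neutrophil markers, against 1346 CPM in Macrophage_1 to Macrophage_4. Each of the 2 classes had a UMI of all 8 neutrophil markers, but Ly6g was at 0 UMIs in MDSC_4. All 7 dendritic cell markers were at 0 UMIs in MDSC_1 to MDSC_4. These 707 neutrophil-like cells were shallow, with a median of 1047 UMIs against 6946.5 in the 532 macrophages and 20428 in the 3213 tumour cells. MDSC_5 was kept apart, because it was reported to hold macrophage genes. Its 37 cells held 8249 CPM of hepatoma, 7203 CPM of macrophage and 1119 CPM of neutrophil markers. In the cluster named DC, the 7 dendritic cell markers summed to 131 CPM, against 50.76 CPM in macrophages. Its monocyte markers summed to 3007 CPM, its macrophage markers to 3282 and its neutrophil markers to 4100. The lists differ in abundance, so these sums do not rank cell types, and the deposited name is used as a label only. The 2 libraries shared 11 cell barcodes.

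IL-1alpha and IL-1beta both signal through the receptor encoded by Il1r1, which needs the accessory protein encoded by Il1rap, and lead to activation of NF-kB and MAP kinases. The antagonist encoded by Il1rn occupies that receptor without signalling, and Il1r2 encodes a decoy receptor that binds ligand and lacks the signalling domain. IL-1beta is made as an inactive precursor. Its release usually depends on an inflammasome, in which a sensor such as NLRP3 recruits the adaptor ASC and caspase-1, and caspase-1 cuts the precursor. In tumours, myeloid cells are a known source of IL-1, which draws in further neutrophils and macrophages.

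All 8 genes were matched by symbol to GENCODE release M21 (GRCm38) and to RefSeq. Il1b (ENSMUSG00000027398, chromosome 2, 129364570 to 129371139) and Il1a (ENSMUSG00000027399, chromosome 2, 129299610 to 129309972) are neighbours on the minus strand with 54597 bases between them. Il1r2 (chromosome 1, 40074079 to 40125231) and Il1r1 (chromosome 1, 40225080 to 40317257) lie on the plus strand with 99848 bases between them. Their levels nevertheless peaked in different cells, as given below. The 250 bases before the RefSeq start are printed for both ligands and for Nlrp3, which were highest in neutrophil-like cells, and for Il1r1, which was highest in fibroblasts. They are from RefSeq, GRCm38.p6, written 5′ to 3′ on the strand of the gene, and for Nlrp3 and Il1r1 the window is the first of 2 listed starts. Capitals mark matches to the motifs searched.
Il1b, chr2:129371140-129371389, minus strand: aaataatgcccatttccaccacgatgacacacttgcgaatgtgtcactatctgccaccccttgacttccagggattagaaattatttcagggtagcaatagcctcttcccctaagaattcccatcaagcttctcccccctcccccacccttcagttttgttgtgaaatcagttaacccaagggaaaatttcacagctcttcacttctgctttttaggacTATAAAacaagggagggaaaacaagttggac
Il1a, chr2:129309973-129310222, minus strand: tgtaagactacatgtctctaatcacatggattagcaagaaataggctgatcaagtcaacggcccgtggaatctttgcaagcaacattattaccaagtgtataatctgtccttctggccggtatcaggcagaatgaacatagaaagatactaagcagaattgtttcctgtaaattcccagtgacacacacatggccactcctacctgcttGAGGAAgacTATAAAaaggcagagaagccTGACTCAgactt
Nlrp3, chr11:59542436-59542685, plus strand: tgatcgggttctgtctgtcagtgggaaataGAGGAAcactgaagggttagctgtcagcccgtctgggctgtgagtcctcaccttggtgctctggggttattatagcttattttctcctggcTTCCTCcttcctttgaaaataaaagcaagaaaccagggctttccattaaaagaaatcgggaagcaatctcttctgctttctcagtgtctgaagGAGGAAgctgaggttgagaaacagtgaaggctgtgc
Il1r1, chr1:40224830-40225079, plus strand: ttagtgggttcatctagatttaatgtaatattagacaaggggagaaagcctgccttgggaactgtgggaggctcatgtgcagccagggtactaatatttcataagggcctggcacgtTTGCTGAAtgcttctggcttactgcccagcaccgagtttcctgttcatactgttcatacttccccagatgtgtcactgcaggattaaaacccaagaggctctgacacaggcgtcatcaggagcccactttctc
The motifs, read on both strands, were TATAAA (the box of core promoters), GAGGAA (the PU.1 core), TTGCNNAA (C/EBP), TGANTCA (AP-1), TTCNNNGAA (GAS), the NF-kB motif and the core of the ISRE. The window of Il1b held TATAAA starting 31 bases before the start, and that of Il1a held it 32 bases before. Of 32851 RefSeq windows of the same length, 12.4% held this motif. The Il1a window also held GAGGAA 41 bases and TGANTCA 12 bases before the start. The Nlrp3 window held GAGGAA 3 times, 220, 129 and 36 bases before the start, the middle match on the other strand. GAGGAA stood in 23.3% of windows and TGANTCA in 6.75%. The Il1r1 window held TTGCNNAA 133 bases before the start, a motif in 9.56% of windows. The NF-kB motif, TTCNNNGAA and the ISRE core stood in 4.11%, 7.02% and 2.98% of windows and in none of these 4. The window of the second listed start of Nlrp3, not printed here, held the NF-kB motif 186 bases before that start on the other strand, and that of Il1r1 held 0 of the motifs. A match is a string of letters, not a site shown to be bound.

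**Figure D1:**
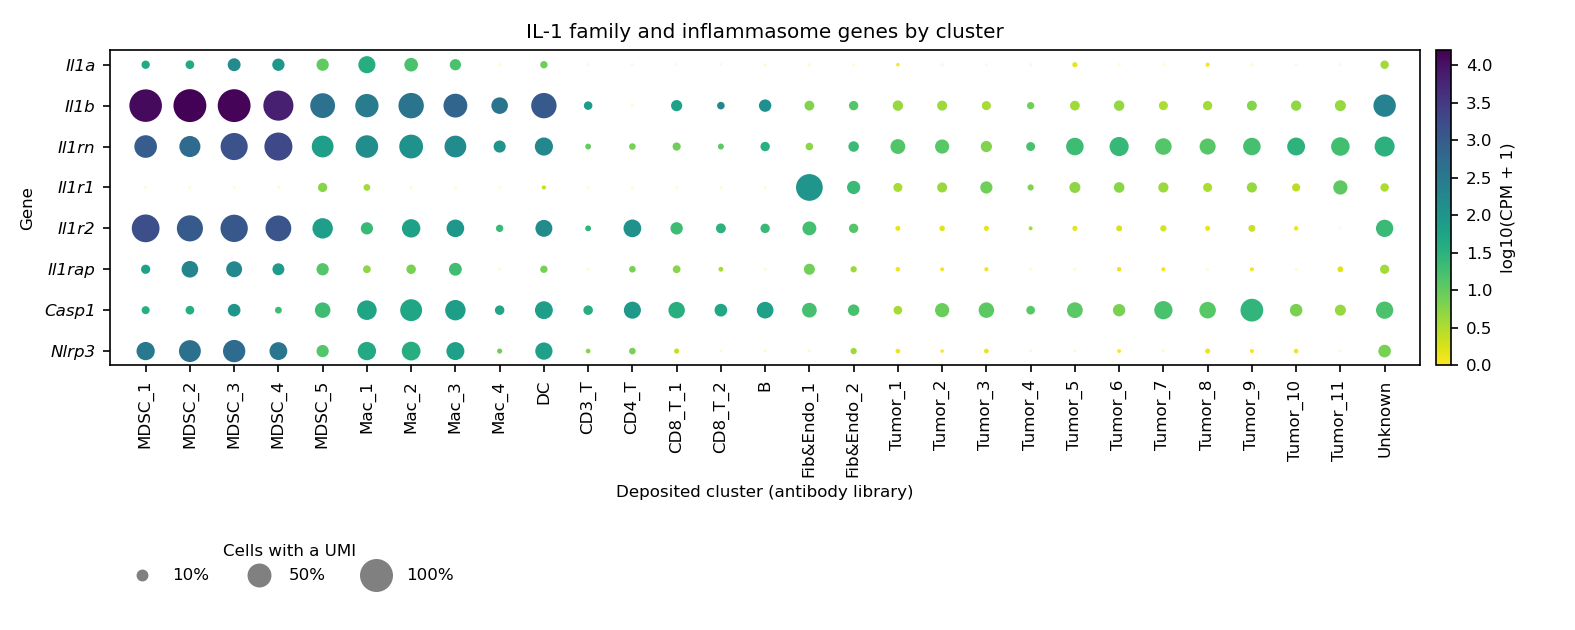
Level and detection of the 8 genes in 29 clusters of the antibody library, all but the Adipocyte cluster of 2 cells. Rows are genes, columns are deposited clusters, colour is log10 of CPM plus 1, and dot area is the percentage of cells with at least 1 UMI, which also depends on depth. Il1b is darkest in MDSC_1 to MDSC_4, Il1r1 in Fibroblast&Endothelial_1, and Casp1 spreads over all clusters.

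Il1b was concentrated in the neutrophil-like cells. MDSC_1 to MDSC_4 made up 12.9% of cells and 1.144% of all UMIs, and held 75.08% of the 14216 Il1b UMIs. Their level was 12583 CPM, against 1084 CPM in the DC cluster and 400.2 CPM in macrophages. Il1b was thus 31.44-fold (29.81 to 33.18) higher in neutrophil-like cells than in macrophages and 11.61-fold (10.88 to 12.4) higher than in the DC cluster. It was detected in 674 of the 707 neutrophil-like cells. When each cell was thinned to 1000 UMIs, leaving out 302 shallower neutrophil-like cells and 50 macrophages, Il1b was expected in 96.74% (94.57 to 98.28) of neutrophil-like cells, 22.52% of macrophages, 37.16% of the DC cluster and 0.386% of tumour cells. Unthinned, the shares were 95.33%, 45.49%, 56.73% and 6.04%.

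Among all genes with at least 10 UMIs in neutrophil-like cells and macrophages together, 5.35% of 11117 were at least 4-fold higher in the neutrophil-like cells and 23.1% were at least 4-fold lower, or 16.5% when a count of 0 was taken as 3 UMIs. Of the 7 IL-1 genes that passed this minimum, 5 were at least 4-fold higher and 0 lower. The 5 were Il1b, Il1r2, Il1rap, Nlrp3 and Il1rn, while Casp1 was about level. Il1a was 3.638-fold higher and did not reach the limit. It passed 4-fold with clusters weighted alike (4.962) and as a mean over the CPM of single cells (4.255), which would make it 6 of 7. All other alternatives left it under 4-fold. They ran from 3.021, against macrophages without S100a8 or S100a9 UMIs, to 3.651, without the cells of highest doublet score. Il1r1, with 0 UMIs in neutrophil-like cells and 4 in macrophages, did not pass the minimum. Against the DC cluster, 6 of the 7 were at least 4-fold higher in neutrophil-like cells, where 5.59% of 8565 genes were. Casp1 was the exception there too.

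**Figure D2:**
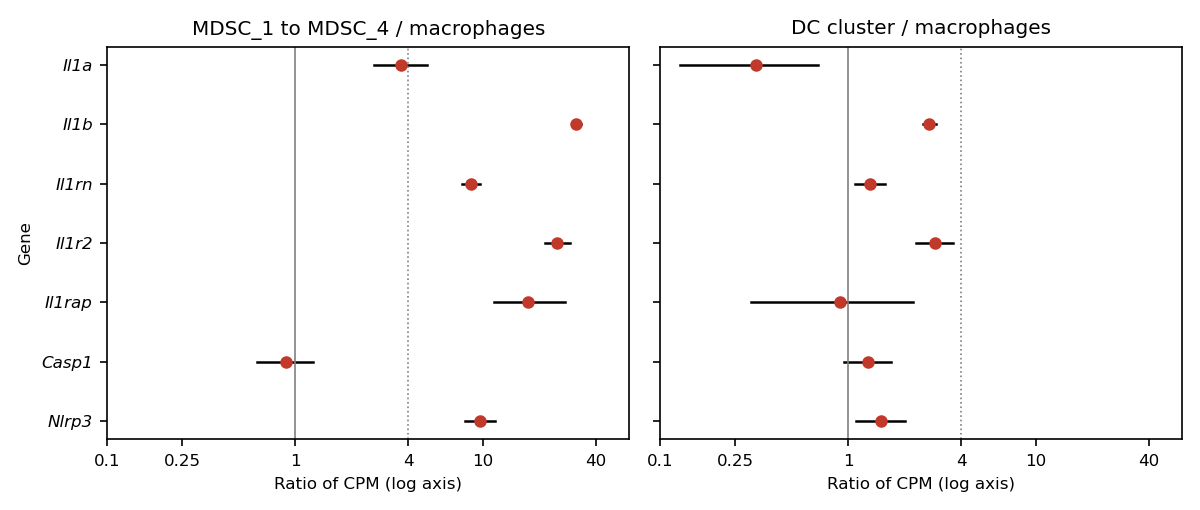
Ratio of CPM between cell classes for the 7 genes with enough UMIs. Points are ratios on a log axis, bars are exact 95% counting intervals, the solid line marks 1 and the dotted line 4. In the left panel Il1b, Il1r2, Il1rap, Nlrp3 and Il1rn lie to the right of 4 and Casp1 lies at 0.8899. In the right panel Il1b and Il1r2 lie between 1 and 4, and Il1a lies at 0.3235.

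Within the neutrophil-like cells, Il1b was 15126 CPM in MDSC_2, 14406 in MDSC_3, 12544 in MDSC_1 and 6698 in MDSC_4. MDSC_2 and MDSC_3 did not differ beyond counting error (ratio 1.05, 0.9995 to 1.103). MDSC_4 stood apart at 0.4806 (0.4507 to 0.512) of the level of the other 3 clusters, where 23.4% of 5858 genes were at least 2-fold lower. The median cell of MDSC_4 was at 4802 CPM and its quartiles were 1071 and 11438, so Il1b was both lower and more spread there than in MDSC_2, with quartiles of 11185 and 19161. Il1b was detected in 82.03% of MDSC_4 cells and in 97.14% to 99.35% of the cells of the other 3 clusters.

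Il1a was far sparser, with 184 UMIs in the library, and 17 of the 30 clusters held none. Neutrophil-like cells held 72 of them at 84.88 CPM and macrophages 91 at 23.33 CPM, a ratio of 3.638 (2.633 to 5.011). The 2 ligands were not placed alike among the myeloid clusters. MDSC_3 led for Il1a at 159.4 CPM, 2.757-fold (1.688 to 4.502) above the other 3 clusters, where 6.57% of 5858 genes were at least 2-fold higher, although its interval against MDSC_4 (94.43 CPM) held 1. MDSC_1 and MDSC_2 were at 47.25 and 42.93 CPM, and Macrophage_1, at 39.37 CPM, could not be told from MDSC_2. Macrophage_1 was 2.787-fold (1.795 to 4.381) above the other macrophage clusters in Il1a, where 3.90% of 10752 genes were at least 2-fold higher. Its Il1b over all cells was 0.6496 (0.5797 to 0.7269) of theirs. In cells without S100a8 or S100a9 UMIs, a split explained below, Il1b was 210 CPM (183.2 to 239.7) in Macrophage_1. Such cells of Macrophage_2, Macrophage_3 and Macrophage_4 held 171.7, 237.7 and 264.4 CPM, so Macrophage_1 was not the lowest there. Over all cells, the DC cluster had Il1b 2.708-fold (2.499 to 2.933) above and Il1a at 0.3235 (0.1265 to 0.6941) of the macrophage level. Of 11100 genes, 0.793% were at least 4-fold higher and 5.75% at least 4-fold lower in the DC cluster than in macrophages, and 0 of 7 IL-1 genes were in either set. Fibroblast and endothelial clusters, CD8 and CD4 T cells held 0 Il1a UMIs, where 3 UMIs would be 2.074 and 1.465 CPM.

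In macrophages and in the DC cluster, Il1b was lower in the cells without a UMI of S100a8 or S100a9. The 2 genes do not mark every neutrophil-like cell. Of the 707 neutrophil-like cells, 74 lacked both, and these held 11609 CPM of Il1b. S100a8 and S100a9, which encode the abundant calcium-binding proteins of neutrophils, had no UMI in 374 of the 532 macrophages. In these 374, Il1b was 200.7 CPM in place of 400.2, Il1r2 17.1 in place of 50.76 and Il1rap 2.85 in place of 7.179. Against these cells the ratios of neutrophil-like cells were 62.69 for Il1b, 73.56 for Il1r2 and 43.85 for Il1rap. Over the whole class, Casp1 (61.07 CPM), Nlrp3 (38.27) and Il1a (28.09) moved little. By cluster, Nlrp3 was lower in such cells of Macrophage_3, at 28.91 CPM (13.22 to 54.89, on 9 UMIs) in place of 67.17. Macrophage_3 had the highest Il1b of the macrophage clusters, 710.4 CPM and 2.063-fold (1.841 to 2.309) above the others, where 8.28% of 10752 genes were at least 2-fold higher. It also had the most neutrophil marker transcripts, 4255 CPM over 8 of 8 markers against 498.7 to 1066 CPM in the other 3. In its 53 cells without S100a8 or S100a9, Il1b was 237.7 CPM (186.7 to 298.5), close to the 210 CPM of such cells in Macrophage_1 (183.2 to 239.7). The DC cluster kept 660.2 CPM of Il1b in its 153 cells without them, 3.289-fold above the macrophages without them. The whole DC cluster was 5.399-fold above those macrophages. The part of free RNA or of cells captured together in these values was not tested.

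**Figure D3:**
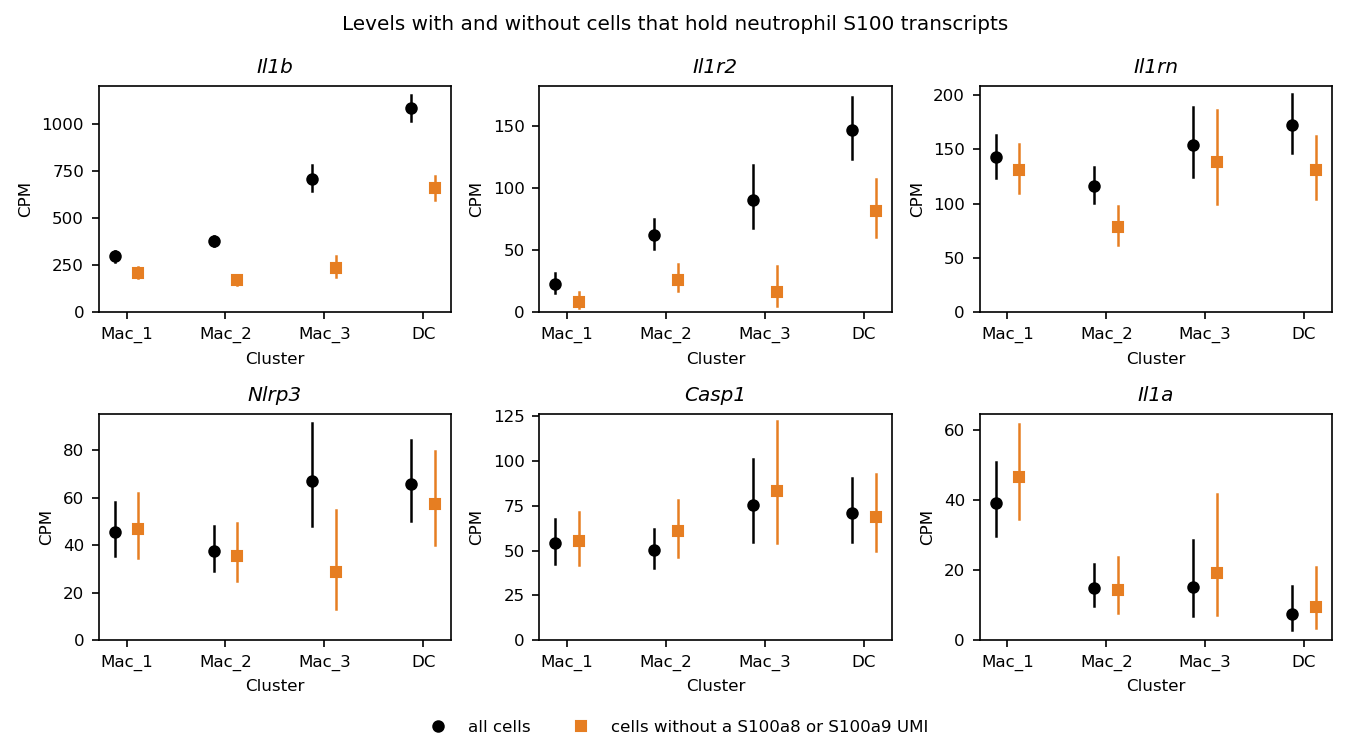
Level of 6 IL-1 genes in Macrophage_1 to Macrophage_3 and the DC cluster, in all cells (black circles) and in cells without a S100a8 or S100a9 UMI (orange squares). The vertical axis is CPM from 0 and bars are exact 95% counting intervals. Il1b and Il1r2 are lower in the cells without these transcripts, most of all in Macrophage_3, and Casp1 and Il1a are not. Nlrp3 is lower in such cells of Macrophage_3.

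In lymphocytes and tumour cells, Il1b was low or confined to few cells. All 70 Il1b UMIs of CD8_T_2 lay in 4 of its 127 cells, which also held 321 S100a9 UMIs. In CD8_T_1, 63 of 88 lay in 4 cells, with 479 S100a9 UMIs. The B cluster differed, with 12 Il1b UMIs in 2 of its 18 cells. Its 4 cells ranked highest by Il1b held 0 S100a9 and 2 S100a8 UMIs. CD4_T held 0 Il1b UMIs in 47 cells, and 3 would be 18.54 CPM. Tumour cells held 3.391 CPM of Il1b, or 0.4874 (0.4116 to 0.5756) Il1b UMIs per S100a9 UMI, near the 0.4886 of the DC cluster and above the 0.3606 of the neutrophil-like cells. In the 2653 tumour cells without S100a8 or S100a9, Il1b was 3.219 CPM (2.741 to 3.757). The source of these UMIs was not tested, and no Il1b expression by lymphocytes or tumour cells is read from them.

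Il1rn, the antagonist, had 2674 UMIs and was found in all 30 clusters. It was 1134 CPM in neutrophil-like cells, 172.5 in the DC cluster and 131.5 in macrophages, 8.622-fold (7.738 to 9.616) higher in neutrophil-like cells than in macrophages. Thinned to 1000 UMIs, it was expected in 50.86% (45.88 to 55.83) of neutrophil-like cells, 11.43% of macrophages and 1.359% of tumour cells, against 52.9%, 38.35% and 18.61% unthinned. Within the neutrophil-like cells its order differed from that of Il1b. MDSC_4 was highest at 1889 CPM, then MDSC_3 at 1360, MDSC_1 at 944.9 and MDSC_2 at 548.5, and each step was larger than counting error.

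The antagonist and its competitor were therefore in different balance from cluster to cluster. The comparison below sets the ratio of Il1rn to Il1b UMIs of clusters beside each other, and not the levels of the 2 genes. There were 0.03627 (0.02984 to 0.04369) Il1rn UMIs per Il1b UMI in MDSC_2, 0.07533 in MDSC_1, 0.09437 in MDSC_3 and 0.282 (0.2472 to 0.3208) in MDSC_4. Macrophages held 0.3286 and the DC cluster 0.1592. The macrophage ratio was 3.646 (3.228 to 4.115) times that of the neutrophil-like cells, and 5.987 times it in macrophages without S100a8 or S100a9 UMIs. Over all cells, Macrophage_1, at 0.4788 (0.403 to 0.5673), lay above Macrophage_3, at 0.2175 (0.1717 to 0.2731). MDSC_4 thus lay within the range of the macrophage clusters over all cells, although its neutrophil markers summed to 47928 CPM. Cells without S100a8 or S100a9 UMIs held 137 Il1rn and 220 Il1b UMIs in Macrophage_1, and 43 and 74 in Macrophage_3. In Macrophage_2 they held 77 and 169, and in Macrophage_4 only 9 and 30. Macrophage_1 and Macrophage_3 were thus close in such cells, and the point ratio of each macrophage cluster lay above the 0.282 of MDSC_4.

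**Figure D4:**
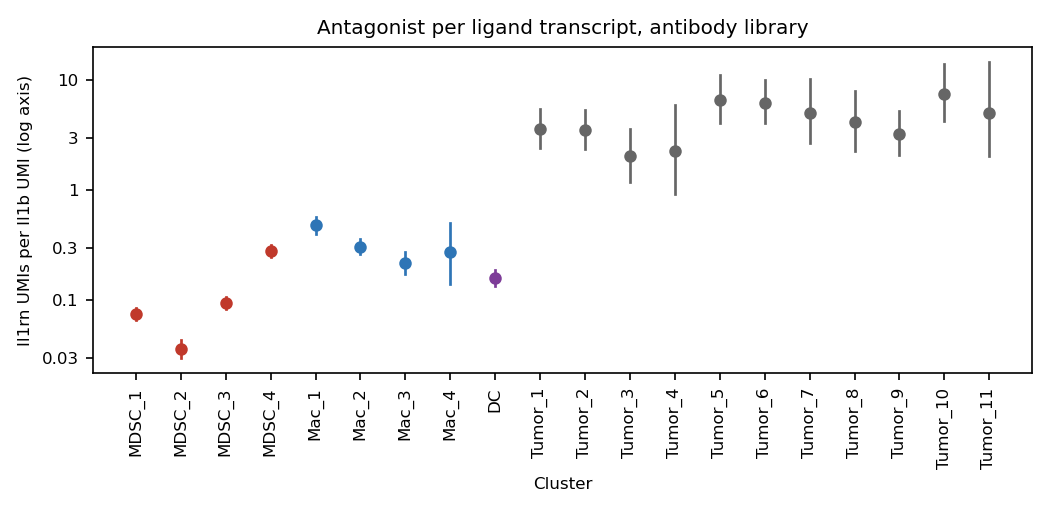
Il1rn UMIs per Il1b UMI, on a log axis, in neutrophil-like (red), macrophage (blue), DC (purple) and tumour (grey) clusters, with exact 95% counting intervals. The ratio is lowest in MDSC_2, at 0.03627, and above 1 in all 11 tumour clusters, though the interval of Tumor_4 reaches below 1.

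Tumour cells held 34.41% of the Il1rn UMIs of the library, at 14.71 CPM, and had 4.34 (3.734 to 5.063) Il1rn UMIs per Il1b UMI. Their Il1rn was 2.115 (1.885 to 2.376) UMIs per S100a9 UMI, against 0.0325 in neutrophil-like cells and 0.1871 in macrophages. The source of these UMIs was not tested. In the 2653 tumour cells without S100a8 or S100a9, it was 15.02 CPM. Across the 11 tumour clusters Il1rn ranged from 5.193 CPM in Tumor_3 to 30.22 in Tumor_10. The level in all tumour cells was low beside that of macrophages, which was 8.938-fold (8.007 to 9.968) higher. In that comparison 7 of 8 IL-1 genes were at least 4-fold higher in macrophages, where 16.0% of 14341 genes were, and Il1r1 alone was lower.

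Il1r1, the signalling receptor, had its highest level in stroma. Fibroblast&Endothelial_1 held 114 Il1r1 UMIs at 101.4 CPM, in 63.54% of its 96 cells, and Fibroblast&Endothelial_2 held 7 at 21.71 CPM. Together they were 23.05-fold (18.43 to 28.69) above all other cells, where 12.3% of 15331 genes were at least 4-fold higher. Il1r1 was the only 1 of 8 IL-1 genes past that fold, a share near that of all genes. The other cells were mostly tumour cells, which held 84.3% of the UMIs of the library. At least 4-fold lower in stroma were 3 of 8 (Il1b, Il1rn and Nlrp3), against 6.19% of genes, when a count of 0 was taken as 3 UMIs. With 0 taken as 0 they were 4 of 8, Il1a included, against 19.6% of genes. Il1a, with 0 UMIs in stroma against 2.53 CPM in the other cells, was at least 1.22-fold lower, so a 4-fold difference could not be shown for it. The first cluster was 4.674-fold (2.196 to 11.89) above the second, and 18.7% of 9207 genes were at least 2-fold higher in it. The fibroblast markers summed to 34916 CPM and the endothelial markers to 2.67 CPM in the first cluster, with Cdh5, Kdr and Emcn at 0 UMIs. The second was mixed, with 8270 CPM of fibroblast, 2093 of pericyte, 1119 of endothelial and 5504 of hepatoma markers, and 14 of its 54 cells had high doublet scores. Il1r1 there cannot be assigned to 1 cell type.

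Neutrophil-like cells, with the most ligand transcript, held 0 Il1r1 UMIs in 707 cells, where 3 UMIs would be 3.537 CPM. The CD8 and CD4 T clusters also held 0, and macrophages held 4. Tumour cells held 65.71% of all Il1r1 UMIs and 84.3% of the UMIs of the library, so their level was only 4.047 CPM. It was detected in 6.72% of them and expected in 0.417% after thinning, against 10.27% in Fibroblast&Endothelial_1. Tumor_11 was highest of the tumour clusters at 10.18 CPM (17 UMIs), 2.625-fold (1.503 to 4.293) above the others, where 8.87% of 13435 genes were at least 2-fold higher. Its interval against the next cluster, Tumor_3 at 7.125 CPM, held 1.

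Il1r2, the decoy receptor, was highest in neutrophil-like cells, like Il1b and unlike the signalling receptor, though in another order of their clusters. Its level was 1258 CPM in neutrophil-like cells against 50.76 in macrophages, 24.78-fold (21.27 to 28.98) higher. It was 1539 CPM in MDSC_1, 1247 in MDSC_4, 1143 in MDSC_3 and 1049 in MDSC_2, and neighbours among the last 3 did not differ beyond counting error. Thus the decoy receptor was in a narrower range over these clusters than Il1b or Il1rn. Thinned to 1000 UMIs, Il1r2 was expected in 61.06% of neutrophil-like cells, 8.81% of the DC cluster, 3.815% of macrophages and 0.0484% of tumour cells. Unthinned, these shares were 64.64%, 23.08%, 16.73% and 1.12%.

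Il1r2 was also present in T cells. CD4_T held 20 UMIs in 12 of 47 cells, or 123.6 CPM, 5.686-fold (3.156 to 9.931) above the 21.73 CPM of the CD8 clusters. At least 4-fold higher in that comparison were 1.85% of 9019 genes. With its Il1b at 0 UMIs and neutrophil markers of 228.6 CPM over 4 of 8 genes, CD4_T did not carry the ligand beside the decoy. Over the CD4 and CD8 clusters, Il1r2 was 29.78 CPM in all 382 cells and 31.54 CPM in the 336 without S100a8 or S100a9, whereas Il1b was 77.13 and 13.69 CPM.

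Il1rap, the accessory protein, had 180 UMIs. It was 125 CPM in neutrophil-like cells and 7.179 in macrophages, 17.41-fold (11.39 to 27.43) higher. MDSC_2 (190.8 CPM) and MDSC_3 (168.3) lay above MDSC_4 (81.84) and MDSC_1 (59.06), and neighbours within each pair did not differ beyond counting error. In stroma, where Il1r1 was highest, Il1rap was 6.223 CPM (9 UMIs), and in tumour cells 0.192 CPM (12 UMIs). The accessory transcript was therefore not highest where the signalling receptor was. Il1rap also serves the receptors of IL-33 and IL-36.

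Nlrp3, the sensor, had 361 of its 627 UMIs in neutrophil-like cells, at 425.6 CPM against 65.78 in the DC cluster and 44.1 in macrophages. The ratio to macrophages was 9.65 (8.026 to 11.64). Its order within the neutrophil-like cells was 558 CPM in MDSC_3, 467.5 in MDSC_2, 352.5 in MDSC_4 and 318.9 in MDSC_1, and no neighbours in it differed beyond counting error. MDSC_3 was 1.478-fold (1.181 to 1.843) above the other 3 as a whole. Nlrp3 was expected in 31.1% (26.63 to 35.87) of neutrophil-like cells after thinning, in 4.234% of macrophages and in 0.0217% of tumour cells, against 33.95%, 22.56% and 0.373% unthinned. Tumour and T cells were near 0, with 12 and 3 UMIs. Of macrophages with an Il1b UMI, 34.3% (28.34 to 40.65) also had a Nlrp3 UMI, against 12.76% (9.145 to 17.15) of those without, and the former had a median of 8502 UMIs against 5010.5, so depth moved with this difference and its part in it was not tested.

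Casp1, the protease, did not share the pattern of its sensor. It was 49.51 CPM in neutrophil-like cells, 55.63 in macrophages, 71.17 in the DC cluster and 41.5 in the CD4 and CD8 clusters. The ratio of neutrophil-like cells to macrophages was 0.8899 (0.6237 to 1.243), and that of the DC cluster to macrophages 1.279 (0.956 to 1.692). Both intervals held 1, with 42 UMIs in neutrophil-like cells limiting the first, which was 1.151 among cells with at least 1000 UMIs. Thinned shares were alike too, at 6.076% in neutrophil-like cells, 5.603% in macrophages and 6.725% in the DC cluster, against 5.658%, 30.08% and 25.96% unthinned. The 4 highest clusters were MDSC_3 (97.42 CPM), CD4_T (86.5), Macrophage_3 (75.57) and DC (71.17), and no neighbours among them differed beyond counting error. Among neutrophil-like clusters MDSC_3 was 3.032-fold (1.579 to 5.857) above the other 3, which makes it the cluster with the highest point level of Il1a, Nlrp3 and Casp1.

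Tumour cells also held Casp1, 627 of the 1108 UMIs at 10.03 CPM. Per S100a9 UMI this was 1.441 (1.273 to 1.633), against 0.001419 in neutrophil-like cells. Tumor_9 stood above the other tumour clusters, at 27.58 CPM with a UMI in 111 of 248 cells, or 3.263-fold (2.687 to 3.942) higher. In that comparison 4.76% of 13435 genes were at least 2-fold higher. The other 10 tumour clusters ran from 2.741 CPM in Tumor_1 to 15.35 in Tumor_7. In Tumor_9, Il1b (5.051 CPM), Il1rn (16.51) and Il1r1 (3.691) had intervals against the other tumour clusters that held 1. Il1r2 there passed 2-fold on 6 UMIs, with an interval of 0.7143 to 5.067.

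A list of 75 further genes of the pathway was then read, of which 69 were in the matrix and 65 had at least 10 UMIs in neutrophil-like cells and macrophages. Of these, 22 were at least 4-fold higher in neutrophil-like cells, against 5.35% of all genes, and 6 were at least 4-fold lower, against 16.5% of all genes when a count of 0 was taken as 3 UMIs. With 0 taken as 0 the lower count was 8, since Nlrc4 and Naip6 had no UMI in these cells. The median ratio of the list was 1.533 and that of all 11117 genes 0.6253. Macrophages held 3900476 UMIs against 848295 in neutrophil-like cells, so a gene could pass the minimum at a lower CPM in macrophages. This limits the comparison with all genes, for the 8 genes above too, and the lists were chosen with earlier results known. Among priming receptors and targets, 10 of 14 were higher and 1 lower. The higher included Lcn2, the iron-carrier binder lipocalin-2 (40.21-fold), the neutrophil chemokine Cxcl2 (25.59), Acod1, the enzyme that makes itaconate (22.8), Ptgs2, the inducible cyclooxygenase (19.98), and the chemokines Ccl3 (16.57), Cxcl3 (14) and Ccl4 (12.46), and Tnf (12.17). The lower was the adhesion molecule Vcam1, at 11.79 CPM against 566.9.

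In receptor signalling, 5 of 22 genes were higher and 0 lower. They included Nfkbia, the NF-kB inhibitor (13.24-fold), and the kinase Irak2 (10.47). Myd88, the adaptor of the receptor, was 2.985-fold (2.39 to 3.719) higher and did not reach the limit. The NF-kB subunit genes of the list did not move together, and none reached 4-fold. Nfkb1 was at 0.7253 (0.5323 to 0.9713) and Rela at 1.065 (0.749 to 1.485). Nfkb2 was at 1.469 (1.061 to 2.007) and Relb at 1.939 (1.267 to 2.911).

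Of the inflammasome genes, 6 of 22 were higher in neutrophil-like cells, where 5.35% of all genes were, and 4 were lower, a share near the 16.5% of all genes. Higher were, among others, the sensors Nlrp12 (19.16-fold, on 25 and 6 UMIs) and Mefv, which encodes pyrin (9.275). Lower were Pycard, which encodes the adaptor ASC (41.26 against 221.3 CPM, ratio 0.1865, 0.129 to 0.2614), the ATP-gated channels P2rx7 (0.1295) and P2rx4 (0.178), and Panx1 (0.219). Nlrc4 and Naip6 had 0 UMIs in neutrophil-like cells against 23 and 22 in macrophages. With 3 UMIs as the floor they were at least 1.667-fold and 1.595-fold lower, which does not reach 4-fold. Gsdmd, the pore-forming target of caspase-1, was 54.23 against 48.71 CPM, a ratio of 1.113 (0.7885 to 1.543). Thus the sensor Nlrp3 was higher, the adaptor Pycard lower and Casp1 and Gsdmd about level in the cells with the most Il1b. Pycard was nearly absent from tumour cells, at 0.784 CPM, in which Casp1 was 10.03 CPM and the DNA sensor Aim2 36.79 CPM.

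**Figure D5:**
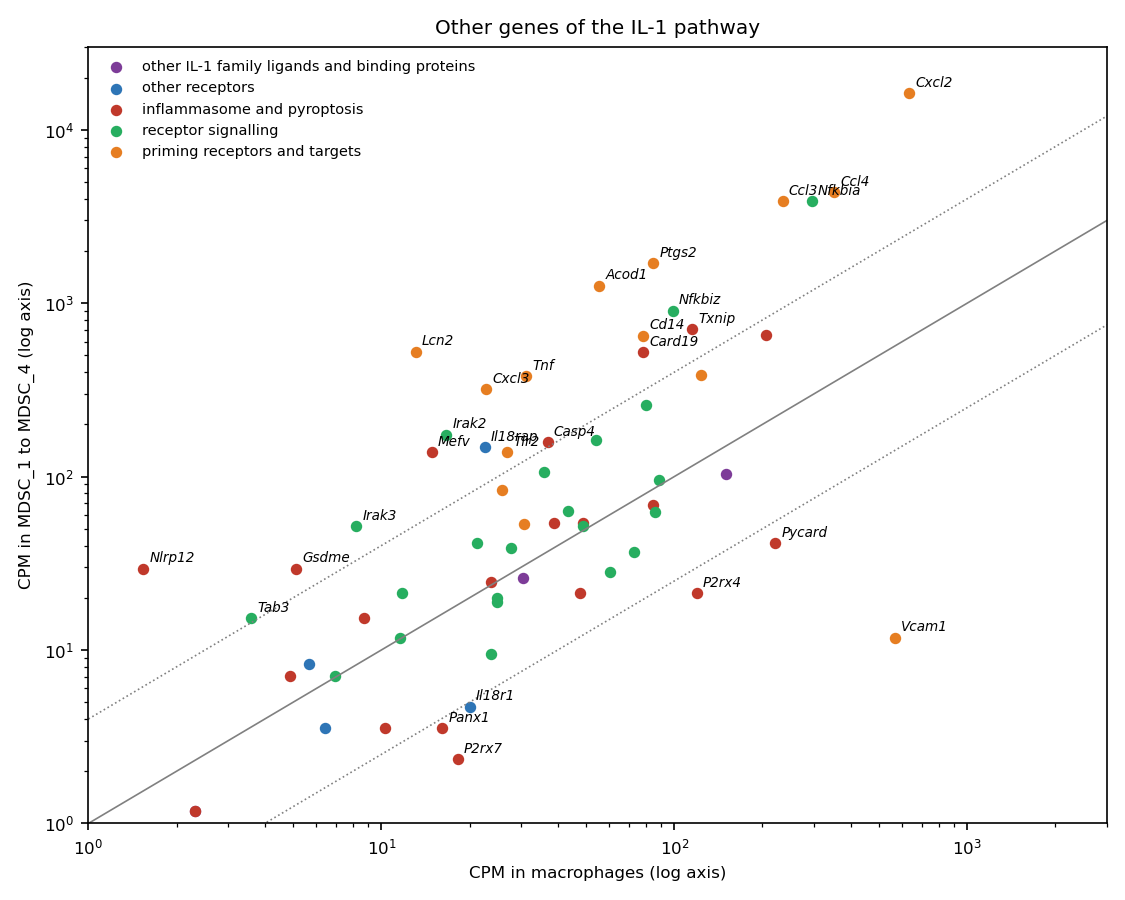
Level of 63 further pathway genes in macrophages and in neutrophil-like cells, in CPM on log axes. The solid line marks equal levels, the dotted lines a 4-fold difference, colours mark the groups of the list, and genes past 4-fold are named. Nlrc4 and Naip6, with 0 UMIs in neutrophil-like cells, are not drawn. Most targets lie above the upper dotted line and Pycard, P2rx4 and Vcam1 below the lower.

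Of the other ligands and binding proteins, 0 of 3 passed 4-fold in either direction. Of 4 other receptors, Il18rap was higher in neutrophil-like cells (6.584-fold, 4.975 to 8.745) and Il18r1 lower (0.2358, 0.06268 to 0.6283). The lower call rests mainly on Macrophage_2, with 68 of the 78 macrophage UMIs of Il18r1 (38.85 CPM). Macrophage_1, Macrophage_3 and Macrophage_4 were at 2.812, 6.717 and 15.11 CPM. Macrophage_2 also held 839.3 CPM of T cell markers, and the source of its Il18r1 UMIs was not tested. Il18r1, the binding chain for IL-18, was 121.6 CPM in the CD4 and CD8 clusters, 210.8 in CD3_T and 4.715 in neutrophil-like cells, while its partner Il18rap was 148.5 CPM in neutrophil-like cells, 87.87 in the CD4 and CD8 clusters and 22.56 in macrophages. The summed natural killer cell markers of CD3_T were 4362 CPM. Il1rl1, the receptor of IL-33, was 22.25 CPM (25 UMIs) in Fibroblast&Endothelial_1 and 10.71 CPM (16 UMIs) in CD8_T_1. Sigirr, a negative regulator of the family, was 52.97 CPM in tumour cells and 3.537 in neutrophil-like cells.

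By the correlation of log2(CPM + 10) over 28 clusters with at least 20 cells, the genes most like each member were found among 11706 genes. The clusters share 1 library and differ widely in depth, so the values are descriptions. Nearest to Il1b were Ifitm1 (r = 0.9765, rho = 0.8894), Cd300lf (0.9748 and 0.8248) and Osm, a cytokine of the IL-6 family (0.9725 and 0.8928). Nearest to Nlrp3 were Tlr13, Mefv and Clec5a, with r from 0.9842 to 0.9821, and to Il1a Tlr13 (0.9537), Nlrp3 itself (0.9488) and P2ry13 (0.9467). Il1rn was most like Hcar2, Ptafr and Rab7 (0.9682 to 0.9663), Il1r2 like Ccrl2, Csrnp1 and Cd80 (0.9747 to 0.9712), and Il1rap like Chil1, Trim30b and Fpr2 (0.9656 to 0.9626). All of these are led by the neutrophil-like clusters. Il1r1 was most like Podn, Mxra8 and Scara5 (0.9721 to 0.9589), which peak in Fibroblast&Endothelial_1. Casp1 was most like Tmem229b (0.9204), Psme2, a proteasome activator subunit (0.915), and B2m, the light chain of MHC class I (0.906), and its r with Nlrp3 was 0.5499. For Il1r1 the r with each of the other 7 members was below 0.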

How the data were processed

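The expression values deposited by the authors are natural log values, ln(1 + 10000 × UMI count / total UMIs of the cell), which was tested on the values: every cell of the antibody library gave whole UMI counts within 0.001 and its sum equalled the recovered depth (553 to 46558 UMIs). The submitters' processing notes name Cell Ranger 2.1.1. Genome build, filters on cells and the way of clustering: not given in the sources used here. Clusters are the authors' own. Libraries used the 10x 3' v2 chemistry, per the labels' protocols, so a level reflects the 3' end of a transcript.

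UMIs were summed per cluster and class (scipy 1.17.1, numpy 2.4.6 and pandas 2.3.3 under Python 3.11.15), scaled to CPM, and given Poisson, Clopper-Pearson or exact conditional 95% intervals. A count of 0 was bounded by 3 UMIs. No cell was removed. Classes were compared without a test, since each group is 1 library, and genes were called at 4-fold between classes and 2-fold between clusters of a class, with at least 10 UMIs in both together. Thinned shares are expected values at 1000 UMIs per cell. In simulated data on 11117 genes, 99.5% of 200 genes raised 8-fold and 0.1008% of unchanged genes passed 4-fold. These counts were drawn with counting error only, from 1 pooled rate per gene. Spread between cells and free RNA were not modelled, so the shares do not give the rate of false calls in these cells. Doublets were scored with scrublet in scanpy 1.11.5. It called 3 of 5482 cells, which is taken as a failure of its threshold, so the 239 cells with the highest scores were left out as an alternative instead. They held 64 of 95 Unknown, 25 of 37 MDSC_5 and 1 of 707 neutrophil-like cells. Plots were drawn with matplotlib 3.10.9.

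The 8 genes, the pathway and marker lists and the tests were chosen with earlier results of these data known. The 8 genes are always named. Of the pathway list, up to 12 genes in each direction past 4-fold with the largest ratio were to be named, with receptors highest outside myeloid cells and, for each of the 8 genes, the 3 most like it among genes with at least 50 UMIs. Myd88, Nfkb1, Rela, Nfkb2, Relb, Gsdmd and Aim2 were named after their values were seen. Alternatives were other depths, scalings and weights, a fold of 2, other UMI minimums and classes without doublets, without Macrophage_4 or, chosen after seeing the data, without cells of high doublet score or with S100a8 or S100a9 UMIs. Also chosen then was to count a fold against 0 UMIs only where 3 UMIs would still give it.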

Additional observations from a re-analysis of the deposited data

How the results depend on the processing

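Of 135 alternative values for 18 ratios, shares and counts, 113 stayed within the counting interval of the reported value (counts within 1.5 times) and 22 moved outside it. No ratio whose interval excluded 1 turned its direction. With clusters weighted alike, the ratio of neutrophil-like cells to macrophages was 27.51 for Il1b, that of the DC cluster to macrophages 2.445 for Il1b, that of Il1rn per Il1b 2.62, and stroma over other cells 28.95 for Il1r1. Without ribosomal and mitochondrial genes the neutrophil-like ratios were 26.72 for Il1b, 7.328 for Il1rn and 21.06 for Il1r2. As a mean over cells, Il1r2 was 31.37 and the stromal ratio of Il1r1 29.29. Against macrophages without S100a8 or S100a9 UMIs, chosen after seeing the data, the neutrophil-like ratios were 62.69 for Il1b, 10.47 for Il1rn, 73.56 for Il1r2 and 43.85 for Il1rap, those of the DC cluster 5.399 for Il1b and 1.593 for Il1rn, and Il1rn per Il1b was 5.987. With the DC cluster filtered in the same way its Il1b ratio was 3.289. A count of 0 taken as 3 UMIs, also chosen after seeing the data, gave 6 pathway genes at least 4-fold lower in place of 8 and left 22 higher. Shares in neutrophil-like cells at 500 UMIs were 91.73% for Il1b, 34.41% for Il1rn and 18.05% for Nlrp3, and at 2000 UMIs 79.38% for Il1rn and 48.16% for Nlrp3. The cause was not tested. No paired analysis was possible because each group is 1 library. Depth limits the neutrophil-like cells most: 302 of 707 had under 1000 UMIs, so Il1a, Casp1 and Il1rap rest on 72, 42 and 106 UMIs there.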

Other observations

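Il33, an alarmin of the IL-1 family released from damaged cells, was 181.5 CPM in Fibroblast&Endothelial_1, with a UMI in 56.25% of cells, and 40.31 CPM in Fibroblast&Endothelial_2. Tumour cells held 23.29 CPM (22.11 to 24.52), from 11.26 in Tumor_7 to 41.5 in Tumor_5, against 1.179 in neutrophil-like cells and 2.307 in macrophages. Il18bp, which binds and blocks IL-18, was 150 CPM (138.1 to 162.6) in macrophages, 103.7 in neutrophil-like cells and 10.75 in tumour cells. Il18 itself was 30.51 CPM in macrophages and 25.93 in neutrophil-like cells, a ratio of 0.8501 (0.5134 to 1.348). Il6, a known target of IL-1 signalling in fibroblasts, had 59 UMIs in the fibroblast and endothelial clusters, 40.79 CPM (31.06 to 52.62), and 0 in neutrophil-like cells, where 3 UMIs would be 3.537 CPM. The fibroblast and endothelial clusters are also those in which Il1r1 was highest, and a link between Il6 and Il1r1 was not tested. Il33, Il18, Il18bp and Il6 were chosen for mention after their values were seen.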
